A study of Mus musculus with 58 samples.

Results

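Imprinted genes are expressed mainly from the copy inherited from one parent, and 10 of them are described here: the chromosome 12 genes Meg3, Rian, Mirg and Dlk1, and H19, Igf2, Cdkn1c, Peg3, Mest and Grb10 from other regions. They were taken by name, as every array probe set annotated to these symbols, after earlier results of the same arrays were known. Meg3 was picked for its difference between the transgenic lines 20b and 41, and the values that picked Cdkn1c are not recorded. The annotation gives 32 of the 45037 probe sets to these genes, of 18193 genes in all. Of these, 31 name a single gene and cover 9 members. H19 is read only by 1448194_a_at, a probe set annotated to H19 and Mir675 together, which is kept apart from the counts below and called the H19 set.

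Quadriceps RNA of 34 male mice was hybridised to 58 arrays in 3 experiments. Experiment 1 compared transgenic CUGexp mice of Line 20b and of Line 41, in which muscle carries RNA with an expanded CUG repeat, with FVB wild type (6 mice of each, 6 months old). Experiment 2 compared Clcn1-null mice, which lack the muscle chloride channel, with BALB wild type (3 of each, 3 months old). Experiment 3 compared Mbnl1-null mice, which lack a splicing regulator that binds CUG repeats, with FVB wild type (5 of each, 3 months old). The modifications were constitutive, no group carried a further allele or treatment, and each CUGexp group is a single line, so that the transgene and anything else particular to its line cannot be told apart. The promoter that drives the repeat is not given in the sources used here. Mice are numbered within each group and the main fit did not pair them, so p-values measure the spread between mice.

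Imprinted clusters are controlled by stretches of DNA that are methylated in only one parent's germ line. In the Dlk1-Dio3 cluster the maternal chromosome makes the long noncoding RNAs Meg3, Rian and Mirg, while the paternal chromosome makes the protein-coding genes Dlk1, Rtl1 and Dio3. In the same way H19 and Cdkn1c are maternal and Igf2, Peg3 and Mest are paternal, and Grb10 is maternal in most tissues outside the brain. Several of these genes act on growth: Igf2 is a growth factor, Grb10 an adaptor that restrains insulin and IGF receptors, and Cdkn1c an inhibitor of cyclin-dependent kinases.

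In the RefSeq annotation (GRCm38.p6) the genes along this stretch of chromosome 12 run Begain, Dlk1, Meg3, Rtl1, Rian, Mirg and Dio3. The members on it are unequal as hosts of small RNAs. The span of Mirg holds 10 microRNA genes, that of Rian 3 and that of Meg3 2, and H19, Igf2 and Mest hold 1 each. The arrays measure the host transcripts and no mature microRNA. The following mature sequences, from RefSeq, show what some of these hosts encode, with the seed (bases 2 to 8) in capitals. The first pair are the only ones in Mirg that share a seed.
miR-453 of Mirg: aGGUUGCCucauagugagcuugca
miR-496a-5p of Mirg: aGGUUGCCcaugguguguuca
miR-410-3p of Mirg: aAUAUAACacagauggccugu
miR-409-3p of Mirg: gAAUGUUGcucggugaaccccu
miR-154-5p of Mirg: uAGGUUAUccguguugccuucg
miR-675-5p of H19: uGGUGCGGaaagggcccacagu
miR-675-3p of H19: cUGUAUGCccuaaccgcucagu

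The Mirg hairpins lie on the + strand, with miR-453 at chr12:109735669-109735692 and miR-410-3p at chr12:109743764-109743784. The H19 pair lies on the - strand, with miR-675-5p at chr7:142577112-142577133. Promoter windows of 300 bases, running from 250 bases before a gene's start to 50 after it, were given for 8 of the 10 members (H19 and Cdkn1c had none), 15 windows in all. The palindromic cAMP response element TGACGTCA, the same on both strands, stood in 2 of the 15, and in 1.79% of all 32851 windows. These were 1 of the windows of Meg3 and the window of Peg3, and only these are printed. The windows of Rian and Mirg lack the element, as does the other Meg3 window. Capitals mark the element and, in Meg3, a stretch that holds TATAAA on both strands, overlapping. No member window held the MEF2 motif, which 3.19% of all windows hold. A match is a run of letters, and no binding was measured.
Meg3 at chr12:109540746-109541045, + strand: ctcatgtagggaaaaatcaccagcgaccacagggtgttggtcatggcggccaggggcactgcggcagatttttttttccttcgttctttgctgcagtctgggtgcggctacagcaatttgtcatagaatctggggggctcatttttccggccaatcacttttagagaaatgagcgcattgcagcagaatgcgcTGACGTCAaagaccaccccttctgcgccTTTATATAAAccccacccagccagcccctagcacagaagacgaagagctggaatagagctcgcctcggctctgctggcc
Peg3 at chr7:6730420-6730669, - strand, the bases before the start: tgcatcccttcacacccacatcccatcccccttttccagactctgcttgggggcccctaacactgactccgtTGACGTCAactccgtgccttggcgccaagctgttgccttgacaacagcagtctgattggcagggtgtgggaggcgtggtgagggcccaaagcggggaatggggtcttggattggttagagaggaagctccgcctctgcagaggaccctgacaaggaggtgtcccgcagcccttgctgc

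The printed Meg3 window has the element at position -57 from the start and 13 CpG dinucleotides. The Peg3 window has it at position -178 and also 13 CpG, against a median of 7 over all windows. The Mirg window has 10 CpG, the Rian window 0 and the other Meg3 window 1.

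The first-read probe set of a gene has its highest mean log2 value when the 3 experiments are averaged, and need not be the brightest in each. Levels are given as log2 of the deposited intensity, where a difference of 1 is a 2-fold change, each experiment on its own scale. A difference subtracts the mean of the group named last from that of the group named first, and its standard error (SE) comes from a limma fit to every probe set of the table. A probe set was called where the limma p, adjusted over all probe sets tested in the experiment, was under 0.05. To be tested, a probe set had to be at log2 5 or above (intensity 32) in at least as many mice as make up the smallest group. That left 24 of the 32 in experiment 1 (all but the 2 of Dlk1 and 6 others), 19 in experiment 2 and 13 in experiment 3, where Rian, Mirg and Dlk1 did not pass. All 8 skeletal muscle fibre markers were bright in every group, with a mean of at least 15.33 in each mouse. The targeted genes were lower in their own mutants, Clcn1 at 9.41 in Clcn1-null and 10.83 in BALB mice (-1.42, SE 0.27, limma adjusted p = 0.0428) and Mbnl1 at 13.08 in Mbnl1-null and 13.81 in FVB mice (-0.73, SE 0.06, adjusted p = 4.8e-05). The part of each transcript these sets read is not given here.

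Between the transgenic lines, Meg3 differed most of the members. At 1452183_a_at, its first-read probe set, line 20b read 11.62 at the lowest, 12.66 at the median and 13.31 at the highest mouse, against 8.95, 9.61 and 11.02 in line 41. No line 20b mouse was as low as any line 41 mouse. The means were 12.64 ± 0.61 and 9.72 ± 0.75 (SD, n = 6 each), a difference of 2.92 (SE 0.30), or 7.58-fold. Since this contrast picked the gene, these values are a description and carry no test.

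Wild type shows which line stands apart. Its mice read 9.30 to 9.75 at the same Meg3 set, a range that lies inside that of line 41 and below every line 20b mouse. The order of the means was line 20b, line 41 and wild type, with line 41 only 0.16 (SE 0.30) above wild type. Without line 41 mouse 6 that small difference was -0.10 (SE 0.25).

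**Figure D1:**
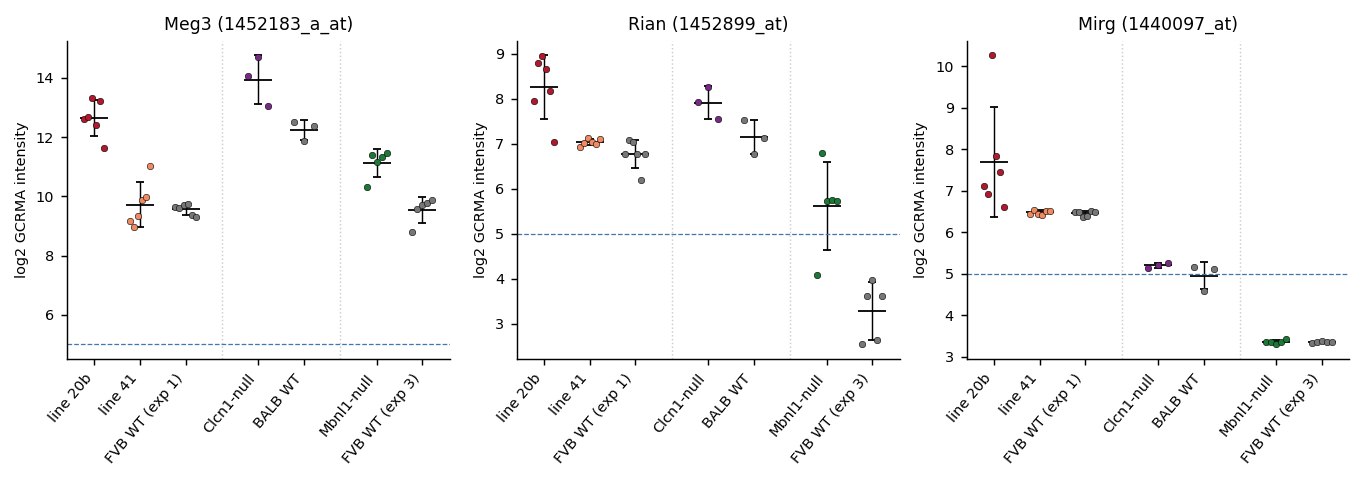
Log2 intensity of Meg3, Rian and Mirg at their first-read probe sets in each of the 34 mice, by group, with the mean ± SD as a bar, the filter at log2 5 dashed and dotted lines between the experiments, whose scales differ. In experiment 1 Meg3 is at 11.62 to 13.31 in line 20b, above line 41 and wild type, and 1 line 20b mouse stands out for Mirg at 10.27.

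The Meg3 probe sets above the filter fall into 2 kinds between the lines. In line 20b against line 41, 5 sets differed by 2.92, 2.63, 2.42, 2.17 and 2.05 (SE 0.25 to 0.33), and the other 4 that passed the filter by -0.06 to 0.30. Of the 5, 4 had every line 20b mouse above every line 41 mouse, and 1436713_s_at had 5 of 6. The 4 sets that were flat between the lines were dimmer, with line 20b means of 5.27 to 9.12. The part of the gene that each set reads is not in the files. One set also gave line 41 its own position: at 1452905_at line 41 read 9.65 to 11.22 and wild type 10.49 to 11.32, a difference of -0.79 (SE 0.25), with 5 of 6 line 41 mice below every wild-type mouse. At the other 4 responding sets line 41 differed from wild type by -0.22 to 0.49.

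**Figure D2:**
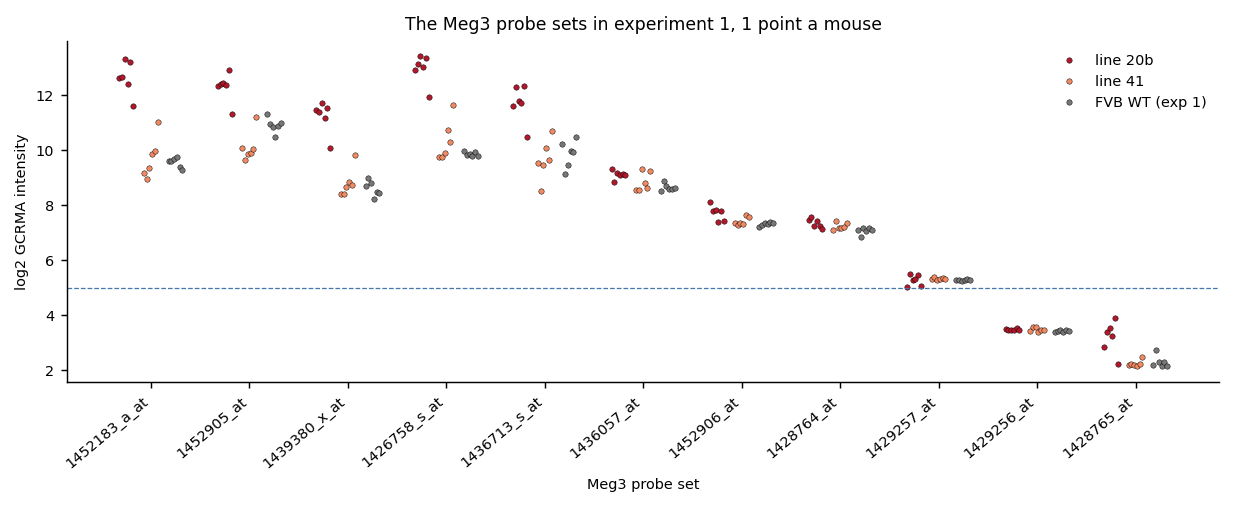
Log2 intensity of the 11 Meg3 probe sets in the 18 mice of experiment 1, a point for each mouse coloured by group. At 5 probe sets line 20b lies 2.05 to 2.92 above line 41 on average, and at the other 4 above the filter these lines differ by 0.30 or less.

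Rian, a noncoding RNA that hosts small nucleolar RNAs, showed the same ordering at lower levels. At 1427580_a_at line 20b read 5.59, 7.88 and 9.15 (lowest, median, highest), against 5.37, 5.59 and 6.29 in line 41, and the difference was 2.06 (SE 0.39). Of the 6 line 20b mice 5 lay above every line 41 mouse, and mouse 6, at 5.59, lay among them. At 1452899_at line 20b read 7.03 to 8.94 and line 41 6.92 to 7.13, again with 5 of 6 above. The third set, 1440001_at, differed by 0.35 (SE 0.14).

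Mirg, the host of the microRNAs printed above, spread widely in line 20b and was low and narrow in line 41 and wild type. The line 20b mice read 7.11, 6.92, 10.27, 7.84, 7.46 and 6.60 at 1440097_at, while the line 41 mice lay between 6.43 and 6.55. All 6 line 20b mice were above line 41, mouse 6 barely and mouse 3 by far the most. The mean difference was 1.21 (SE 0.41) at this set and 1.49 (SE 0.40) at 1457030_at, where mouse 3 was again the highest at 9.15.
Dlk1, the paternally expressed transmembrane protein related to Notch ligands, stayed under the filter: its brighter set read 4.11 to 5.27 in line 20b, 4.00 to 4.54 in line 41 and 4.35 to 4.77 in wild type.

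Peg3, a zinc finger protein of a different imprinted region, also read higher in line 20b. At 1433924_at the line 20b mice read 11.43, 11.99, 12.09, 11.75, 12.01 and 12.01, against 10.53, 10.79, 11.32, 11.02, 10.89 and 10.42 in line 41, a difference of 1.05 (SE 0.15) with no overlap. The set 1417355_at differed by 0.91 (SE 0.10) with no overlap, and 1417356_at by 0.60 (SE 0.15) with overlap. All 3 Peg3 sets above the filter thus read higher in line 20b.

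Cdkn1c, whose protein holds cells out of the cycle, read lower in line 20b. The line 20b mice read 9.71 to 9.79, a spread (SD) of 0.03, against 10.21 to 11.10 in line 41 with an SD of 0.31. Every line 20b mouse was below every line 41 mouse, and the difference was -0.87 (SE 0.12), or 1.82-fold lower. Wild type, at 10.05 to 10.41, lay between: line 20b was 0.46 below it and line 41 0.40 above it (-0.46 and 0.40, SE 0.12 each), the first with no overlap and the second with 4 of 6 line 41 mice above all wild-type mice. No test is given for Cdkn1c in this experiment.

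The remaining members were close between the lines. Grb10 differed by 0.19 (SE 0.10), Igf2 by 0.24 (SE 0.10), the H19 set by -0.03 (SE 0.27) and Mest by 0.01 (SE 0.40). Over the 23 member sets with 1 symbol, line 20b lay wholly above line 41 at 8, wholly below at 1 and overlapped at 14. Of all 27330 probe sets tested, 1.79% lay wholly above and 2.03% wholly below, 3.83% together, and limma called 2.58% higher and 3.26% lower, 5.84% together. The median difference was 0.60 for the member sets and -0.00 for all probe sets. As the members were chosen on this contrast, nothing is read from these shares.

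The 2 mice numbered 6 stood apart within their lines. Line 20b mouse 6 had the lowest Meg3 of its line at all 5 sets where the lines differ (11.62, 11.93, 10.10, 11.32 and 10.48), and the lowest Rian (7.03) and Mirg (6.60) at the first-read sets. Yet it read with its line for Peg3 (12.01), Cdkn1c (9.76) and Grb10 (10.86). Line 41 mouse 6 had the highest Meg3 of its line at the first-read set (11.02), with the lowest Cdkn1c (10.21) and the lowest Peg3 at 1433924_at (10.42). At Peg3 1417356_at and 1417355_at it read 10.12 and 12.02, inside the range of its line. Mreg, a gene that is no member, was chosen after its values were seen because it separates the lines widely. It read 15.13 in line 20b mouse 6 and 6.41 in line 41 mouse 6. With these mice included the lines spanned 15.02 to 15.23 and 5.94 to 6.41, so line 41 mouse 6 was the highest of its line. No test was made on Mreg. Without both mice, a setting chosen after seeing the data, the Meg3 difference was 3.39 (SE 0.20).

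**Figure D3:**
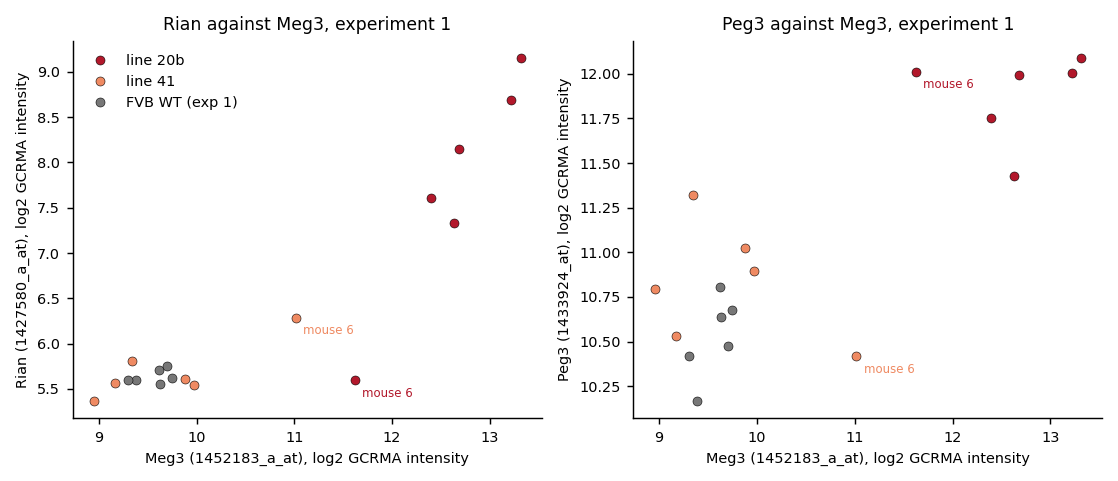
Rian (left) and Peg3 (right) against Meg3, log2 intensities of the 18 mice of experiment 1 at 1427580_a_at, 1433924_at and 1452183_a_at, coloured by group, with mouse 6 of each line labelled. Line 20b mouse 6 has Rian at 5.59, among the line 41 mice, and Peg3 at 12.01, among its own line.

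Across the 18 mice the members moved with Meg3 in different degrees. Pearson's r with the first-read Meg3 set was 0.92 and 0.88 for the Rian sets 1427580_a_at and 1452899_at, 0.81 and 0.70 for Mirg, 0.77 to 0.89 for Peg3 and -0.74 for Cdkn1c. It was 0.37 for Igf2, 0.24 for the H19 set and -0.35 for Grb10. These values describe 18 mice in 3 groups, and the difference between the groups enters every one of them. The genes outside the list whose pattern was most like Meg3 over the 18 mice were Krt222 (r = 0.94), Dtna (0.93), Drosha (0.92), Riiad1 (0.92) and Btbd1 (0.92), and the most opposite were Styx and Kcnab1 (both -0.94). Within groups, as deviations from the group means, r was 0.72 for Drosha, the nuclease that starts microRNA processing, 0.66 for Riiad1, 0.65 for Krt222, 0.50 for Dtna, 0.37 for Btbd1, -0.66 for Styx and -0.45 for Kcnab1. All 7 were chosen for their correlation with Meg3 in the same mice.

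The next comparison sets line 20b beside FVB wild type and asks what goes with CUG repeat RNA in muscle. Peg3, Rian and Mirg rose in line 20b and Grb10 fell. Among the 13 member sets with 1 symbol that carry a test here (Meg3 and Cdkn1c carry none), 7 were higher, 2 lower and 4 not called. Of all probe sets tested 7.35% were higher and 9.49% lower, 16.8% in all. The groups did not overlap at 9.58% of them, with line 20b wholly above at 4.32% and wholly below at 5.26%. The sets called higher were of Peg3, Rian and Mirg alone and those called lower of Grb10, several sets to a gene. The line 20b mice are those of the contrast that picked Meg3, and Rian and Mirg were correlated with Meg3 across the mice. These calls are therefore not independent of that choice, and nothing is read from the counts.

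Peg3 rose at each of its 3 sets above the filter. At 1433924_at line 20b read 11.43 to 12.09, against 10.17 to 10.81 in wild type. Every line 20b mouse was above every wild-type mouse, as at the other sets. The changes were 1.35 (SE 0.15, limma adjusted p = 3.2e-06), 1.06 (SE 0.10, adjusted p = 1.0e-06) and 0.94 (SE 0.15, adjusted p = 0.000227), with n = 6 and 6.

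Rian rose at 1452899_at by 1.49 (SE 0.24, limma adjusted p = 0.000218) and at 1427580_a_at by 2.11 (SE 0.39, adjusted p = 0.000828), while 1440001_at was not called (0.32, adjusted p = 0.124). Wild type read 6.18 to 7.08 at the first of these and 5.56 to 5.75 at the second, and 5 of 6 line 20b mice lay above it at both. Mirg rose by 1.57 at 1457030_at (SE 0.40, limma adjusted p = 0.0110) and by 1.24 at 1440097_at (SE 0.41, adjusted p = 0.0482), with no overlap with wild type at either. The second of these calls is at the threshold: over the alternatives its adjusted p ran from 0.00300 to 0.114. Without line 20b mouse 3, the change of Mirg at this set was 0.73 (SE 0.15, limma adjusted p = 0.00300).

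Meg3 itself, as a description, read 3.08 above wild type at 1452183_a_at (SE 0.30) and 3.11, 2.63, 1.83 and 1.38 above it at the other responding sets.

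Grb10 fell at 1425458_a_at, with 10.55, 10.68 and 10.86 (lowest, median, highest) in line 20b and 11.42, 11.54 and 11.91 in wild type. The groups did not overlap, and the change was -0.92 (SE 0.10, limma adjusted p = 5.2e-06). The dim set 1425457_a_at fell by 0.90 (SE 0.25, adjusted p = 0.0168), with 2 of 6 line 20b mice inside the wild-type range, and 1430164_a_at read -0.10 and was not called.

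The H19 set was called higher in line 20b (0.83, SE 0.27, limma adjusted p = 0.0374), with 13.17 to 13.64 in line 20b. The wild-type mice read 12.04, 11.22, 13.22, 13.03, 13.04 and 13.09, and mice 1 and 2 lay furthest below line 20b. Over the alternatives the adjusted p ran from 0.0209 to 0.108. Without mice 1 and 2 the H19 set differed by 0.34 (SE 0.13, limma adjusted p = 0.108), and it was 0.55 without mouse 2 alone and 0.72 without mouse 1 alone. Those mice also had the most adipocyte RNA of the group: the summed intensity of the adipocyte markers was 96714 and 102556 in mice 1 and 2 and 32028 to 46963 in the other 4, and its part in the H19 result was not tested. In bulk muscle, fewer cells of a type and less RNA per cell cannot be told apart.
Igf2, the growth factor beside H19, was not called (0.12, SE 0.10, adjusted p = 0.480), nor was Mest, a hydrolase-like gene that hosts miR-335 (-0.69, SE 0.40, adjusted p = 0.283). Mest read 8.37 in wild-type mouse 2 and at most 5.75 in every other mouse of the experiment.

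**Figure D4:**
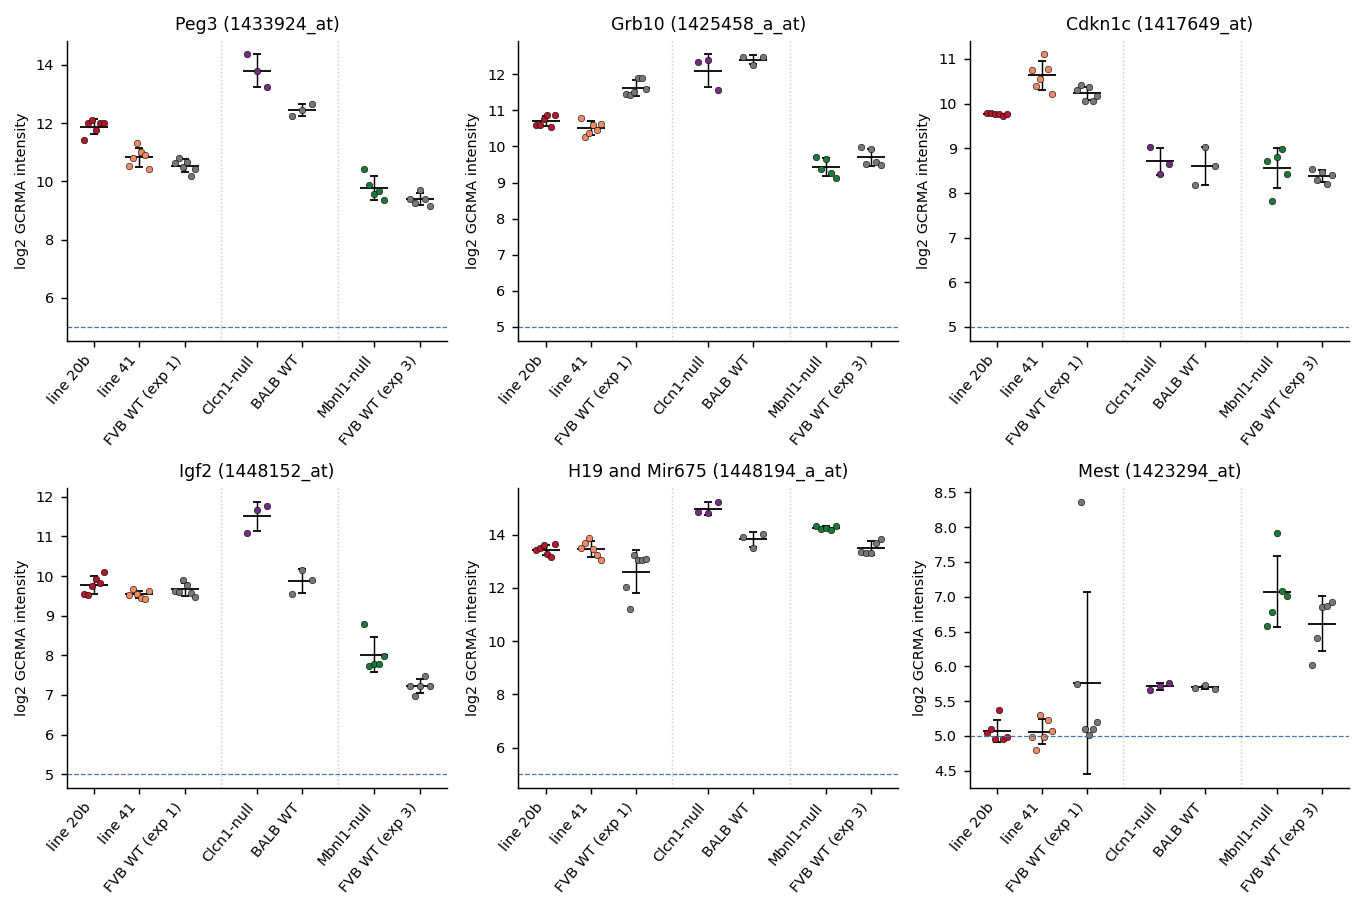
Log2 intensity of Peg3, Grb10, Cdkn1c, Igf2, the H19 set and Mest at their first-read probe sets in each of the 34 mice, by group, with the mean ± SD, the filter at log2 5 dashed and dotted lines between experiments of different scale. Grb10 is at 10.26 to 10.86 in both CUGexp lines and at 11.42 to 11.91 in their wild type, and Cdkn1c is at 9.71 to 9.79 in line 20b.

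The wild-type mice that served for line 20b also served for line 41, so the comparisons share their controls. Grb10 fell here too, and it was the only call: of the 13 member sets with a test 0 were higher and 1 lower, where 3.88% of all probe sets were higher and 4.59% lower, 8.47% in all. Line 41 lay wholly below wild type at 1.88% of all probe sets and wholly above at 2%, together 3.88%. At an unadjusted p under 0.05 the limma fit had 1 member set higher and 2 lower. Line 41 read 10.26 to 10.78 at Grb10 1425458_a_at, below every wild-type mouse, a change of -1.11 (SE 0.10, limma adjusted p = 2.7e-06), or 2.16-fold lower. At 1425457_a_at Grb10 read -0.60 (SE 0.25, adjusted p = 0.155), and -0.90 (adjusted p = 0.0395) without wild-type mice 1 and 2.

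In line 41 the Dlk1-Dio3 RNAs and Peg3 were not called. Rian read 0.27 (SE 0.24, limma adjusted p = 0.570) and 0.06 at its first 2 sets, Mirg 0.03 and 0.08, and Peg3 0.30 (SE 0.15, adjusted p = 0.241), 0.15 and 0.34. All of these overlapped with wild type. The H19 set read 0.86 (SE 0.27, adjusted p = 0.0519), close to its value in line 20b. It was 0.98 (limma adjusted p = 0.0310) without wild-type mouse 3 and 0.37 (adjusted p = 0.126) without wild-type mice 1 and 2.

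Clcn1-null mice have myotonia without repeat RNA, so they ask what the loss of the chloride channel alone goes with. Meg3 and Igf2 rose in them. Of 18 member sets tested 4 were called higher and 0 lower by limma (7 and 0 at an unadjusted p under 0.05), where 1.78% of all 25944 probe sets tested were higher and 2.54% lower, 4.32% in all. The median change was 0.43 over the member sets and 0.03 over all. Of the 18 sets 7 were of Meg3, and 3 of the 4 calls were Meg3 and the other Igf2. Sets of the same gene are not separate results, so nothing about imprinted genes as a group is read from the count or the median.

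At 1426758_s_at, Meg3 read 10.63, 11.34 and 11.52 in Clcn1-null mice, against 9.48, 9.14 and 9.36 in BALB wild type. It rose by 1.84 (SE 0.26, limma adjusted p = 0.0191, n = 3 and 3), 3.57-fold. Meg3 1452905_at rose by 1.45 (SE 0.21, adjusted p = 0.0251) and 1439380_x_at by 1.32 (SE 0.24, adjusted p = 0.0388), both without overlap. The first-read set, 1452183_a_at, read 14.06, 14.70 and 13.07 in Clcn1-null mice, against 12.51, 11.88 and 12.37 in wild type. It did not overlap either, but the mice of the mutant spread widely and it was not called (1.69, SE 0.42, adjusted p = 0.0878). The other Meg3 sets tested were not called. In Clcn1-null mice and wild type they read 5.08 to 6.11 and 4.18 to 5.23 (1436713_s_at), and 9.56 to 9.99 and 9.43 to 9.56 (1436057_at). The set 1452906_at read 5.80 to 5.95 and 5.73 to 5.78.

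At 1448152_at, Igf2 read 11.10, 11.68 and 11.77 in Clcn1-null mice and 9.55, 10.15 and 9.91 in wild type. It rose by 1.65 (SE 0.24, limma adjusted p = 0.0226), 3.13-fold, with no overlap. The dimmer Igf2 set, 1415931_at, read 5.69, 5.81 and 5.97 in the mutant and 5.77, 5.45 and 5.78 in wild type, and was not called. The H19 set, from the neighbouring gene on chromosome 7, was at 14.86, 14.82 and 15.24 in the mutant and 13.92, 13.50 and 14.04 in wild type, and was called too (1.16, SE 0.19, adjusted p = 0.0291).

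Peg3 1433924_at read 14.36, 13.80 and 13.24 in Clcn1-null mice, against 12.24, 12.46 and 12.64 in wild type. The groups did not overlap and the set missed the threshold (1.35, SE 0.29, limma adjusted p = 0.0592). Peg3 1417356_at, also tested, read 9.06, 8.57 and 6.90 in Clcn1-null mice and 7.56, 7.33 and 7.78 in wild type. That set overlapped and was not called. Rian read 0.77 (SE 0.26, adjusted p = 0.189), Grb10 -0.30 (adjusted p = 0.532) and Cdkn1c 0.10 (adjusted p = 0.852). Mirg (0.24), Dlk1 (-0.06) and Mest (0.02) lay near the filter.
Groups that do not overlap are common at this size: 28.4% of all probe sets tested had no overlap, with Clcn1-null mice wholly above at 13.9% and wholly below at 14.5%. These calls also depended on single mice. The count of member calls was 7 without Clcn1-null mouse 3, 2 without mouse 1 and 0 without mouse 2 or any 1 of the 3 wild-type mice. Fat differed between these groups: all 5 adipocyte markers tested (of 8 listed, 6 with a probe set) rose, and the summed intensity of the 6 was 105837 to 134143 in Clcn1-null mice and 43627 to 54590 in wild type. Its part in the Meg3 and Igf2 results was not tested.

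Mbnl1-null mice were set against FVB wild type of their own experiment. Meg3, Igf2 and the H19 set rose. Of 12 member sets tested 4 were called higher and 0 lower by limma (5 and 0 at an unadjusted p under 0.05), where 7.28% of all 16229 probe sets tested were higher and 8.92% lower, 16.2% in all. The groups did not overlap at 14.3% of all probe sets, with Mbnl1-null mice wholly above at 5.83% and wholly below at 8.48%. The median change was 0.43 over the member sets and -0.02 over all. Here 5 of the 12 sets were of Meg3, and 3 of the 4 calls were Meg3 and the other Igf2. Again nothing about imprinted genes as a group is read from the count or the median.

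At 1452183_a_at, Meg3 read 10.32, 11.39, 11.16, 11.32 and 11.47 in Mbnl1-null mice, against 8.78, 9.59, 9.70, 9.76 and 9.87 in wild type. All 5 mutants were above all 5 wild types, and the rise was 1.59 (SE 0.25, limma adjusted p = 0.00162), 3.02-fold. It was 1.95 (SE 0.27, adjusted p = 0.000904) at 1426758_s_at and 1.32 (SE 0.22, adjusted p = 0.00266) at 1439380_x_at. The other Meg3 sets that passed were not called, 1452905_at at 0.31 and 1436713_s_at at 0.55. In each group mouse 1 was the lowest at 1452183_a_at.

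Igf2 read 8.79, 7.73, 7.78, 7.78 and 7.99 in Mbnl1-null mice, against 7.23, 6.97, 7.21, 7.49 and 7.24 in wild type. The groups did not overlap and mouse 1 was the highest of the mutants. Igf2 rose by 0.79 (SE 0.20, limma adjusted p = 0.0193), and by 0.72 with an adjusted p of 0.0521 without wild-type mouse 2. The H19 set read 14.34, 14.23, 14.23, 14.16 and 14.34 in the mutant and 13.34, 13.32, 13.32, 13.68 and 13.84 in wild type (0.76, SE 0.10, adjusted p = 0.000833). Of 5 adipocyte markers 0 were called in this experiment by limma, and 0 had an unadjusted p under 0.05.

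Rian did not pass the filter, which asks for 5 mice at log2 5 or above. At 1452899_at the Mbnl1-null mice read 4.08, 6.78, 5.72, 5.76 and 5.73, against 2.54, 3.61, 3.97, 2.63 and 3.61 in wild type. Every mutant was above every wild type, and 4 of 5 mutants were over the filter. The mean of the mutants was 1.53-fold above the filter value. All wild-type mice and the mutant at 4.08 lay under the filter, so the size of the difference is not known and the set carries no call. Mirg 1457030_at read 2.57 to 4.66 in the mutants and 2.49 to 2.59 in wild type, all under the filter.

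Peg3 (0.40, SE 0.18, limma adjusted p = 0.166), Cdkn1c (0.17, SE 0.19, adjusted p = 0.594), Mest (0.46, SE 0.25, adjusted p = 0.250) and Grb10 (-0.27, SE 0.14, adjusted p = 0.230) were not called in Mbnl1-null mice. The Mbnl1-null mice and their wild types overlapped at all 4. Peg3 1417356_at and 1417355_at, also tested, were not called either, at 8.42 to 9.68 and 7.45 to 8.33 in the mutant. Wild type read 8.32 to 8.82 and 7.02 to 7.56 there.

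**Figure D5:**
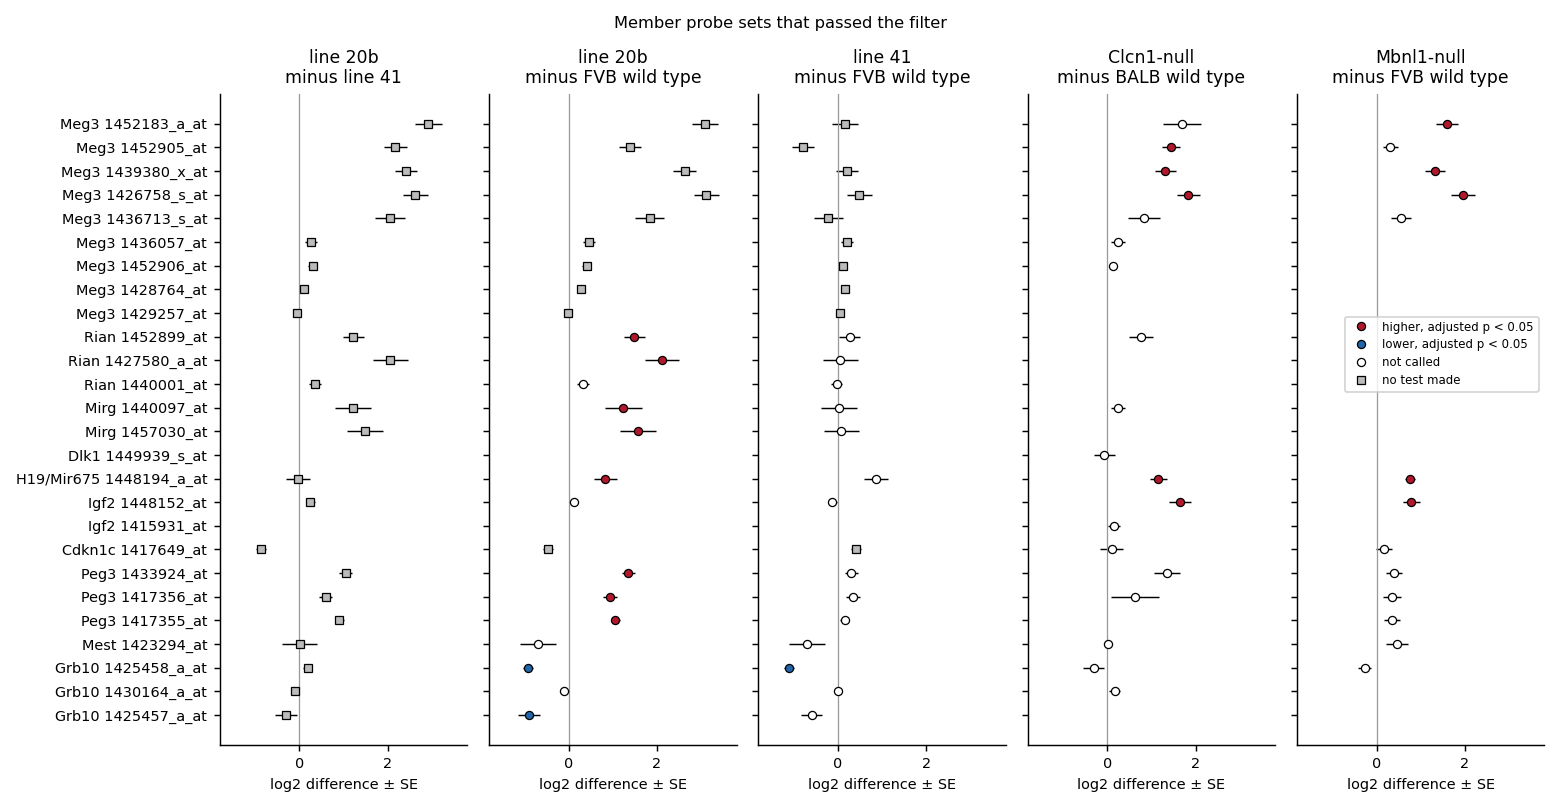
Log2 differences ± SE of the member probe sets that passed the filter, in 5 panels by comparison, with red for called higher, blue for called lower, white for not called and grey squares where no test was made. Grb10 1425458_a_at is at -0.92 and -1.11 in the CUGexp lines, and Meg3 is above 0 at its responding sets in Clcn1-null and Mbnl1-null mice.

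Set side by side, the changes of Peg3, Igf2 and Grb10 were as follows. Peg3 1433924_at read 1.35 in line 20b and 0.30 in line 41, with 1.35 for the Clcn1-null and 0.40 for the Mbnl1-null mice. Igf2 1448152_at read 0.12, -0.13, 1.65 and 0.79 in the same order, and Grb10 1425458_a_at -0.92, -1.11, -0.30 and -0.27. Differences between experiments were not tested, since age, strain, array and scale differ with them.

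No tested neighbour of the members in the Dlk1-Dio3 region was called, but few could be tested. Of 8 genes listed only 4 had a probe set, and Rtl1 and Dio3 were among those not tested. Of the neighbours listed, Dio3os, an RNA antisense to Dio3, Wdr25 and Ppp2r5c passed the filter, and 0 of 3 were called by limma in line 20b, line 41 or Clcn1-null mice, where 0 also had an unadjusted p under 0.05. In line 20b they read 0.05, -0.01 and -0.10. Ppp2r5c alone was tested in Mbnl1-null mice (-0.20, limma adjusted p = 0.271).

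The counts of the lists that follow stand beside the shares called over all probe sets, 16.8% for line 20b, 8.47% for line 41, 4.32% for Clcn1-null and 16.2% for Mbnl1-null mice, and nothing particular to a list is read from them. Other genes listed as maternally or paternally expressed come first, and whether they are imprinted in this muscle was not measured. Of 22 tested that are listed as maternally expressed, 3 rose and 1 fell in line 20b. Among them were Tssc4 (0.79), Cobl (0.64) and the proteoglycan gene Dcn (-0.47). In line 41, 3 rose and 2 fell (Cobl 0.41, Blcap -0.38, Ube3a -0.35). In Clcn1-null mice 0 rose (2 higher at an unadjusted p under 0.05) and 2 of 18 fell, Asb4 by 2.40 (SE 0.29, limma adjusted p = 0.0135) and Cobl by 0.71, and in Mbnl1-null mice 2 of 15 rose (Cobl 0.65, Copg2 0.44). Of 16 listed as paternally expressed, 1 rose and 2 fell in line 20b. None was called in line 41 (limma, with 0 higher and 3 lower at an unadjusted p under 0.05). Slc38a4, an amino acid transporter, fell in line 20b by 2.66 (SE 0.31, limma adjusted p = 6.0e-06), in Clcn1-null mice by 3.96 (SE 0.15, adjusted p = 0.00168) and in Mbnl1-null mice by 2.48 (SE 0.32, adjusted p = 0.000569). Beside Slc38a4, 1 of 17 rose in Clcn1-null mice, Zdbf2 (2.82, SE 0.20, limma adjusted p = 0.00575), and 0 of 10 rose in Mbnl1-null mice (3 higher at an unadjusted p under 0.05). Plagl1, a zinc finger regulator of imprinted genes in mouse, fell by 0.56 in line 20b, and Zdbf2 rose there by 0.37.

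The partners of Igf2, Grb10 and Cdkn1c were examined as lists. In the IGF system 1 of 14 genes rose and 5 fell in line 20b, led by Igf1 (-1.93), the binding protein Igfbp5 (-1.78) and the adaptor Grb14 (0.96). Igfbp5 fell in the other mutants as well, with -0.77 in line 41 (where 1 gene of 14 rose and 2 fell), -3.05 in Clcn1-null mice (1 and 1 of 15, with Igfbp3 at 2.57) and -1.41 in Mbnl1-null mice (2 and 2 of 10, with Grb14 at 0.83). Of the cyclin-dependent kinase inhibitors and their partners, 1 of 14 rose and 4 fell in line 20b and 1 rose and 3 fell in line 41. Cdkn1a, an inhibitor of the same family as Cdkn1c, rose 2.83-fold in line 20b, 2.19-fold in line 41 and 4.56-fold in Mbnl1-null mice (2 rose and 0 fell of 13). In Clcn1-null mice Ccnd2 rose (1.59) and Ccne2 fell by 2.07, of 13.

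The same counts were taken for imprint maintenance and Polycomb genes, MEF2 factors, myogenic genes and the Notch pathway. Of the imprint maintenance and Polycomb genes, 0 rose and 1 of 11 fell in line 20b (Hdac3, -0.30), none was called in line 41 (1 lower at an unadjusted p under 0.05), Ezh1 rose in Clcn1-null mice (0.83, 1 of 11) and Eed fell by 0.52 in Mbnl1-null mice (1 of 10). The MEF2 factors, muscle activators, gave Mef2c at 0.24 and Mef2a at -0.26 in line 20b (1 and 1 of 3), none in line 41 or Clcn1-null mice (1 and 2 lower at an unadjusted p under 0.05), and Mef2d at 0.29 and Mef2a at -0.36 in Mbnl1-null mice (1 and 1 of 3). Among myogenic precursor and regenerating fibre genes, embryonic myosin Myh3 rose in every mutant: 1.06 in line 20b (2 rose and 2 fell of 13), 1.29 in line 41 (1 and 1 of 13), 3.13 in Clcn1-null (1 and 0 of 12) and 1.89 in Mbnl1-null mice (3 and 0 of 9). Those of this list that fell were the receptors Notch1 (-0.41) and Notch3 (-0.52) in line 20b and Notch3 (-0.52) in line 41. Of the other Notch pathway genes, Jag1 fell by 0.51 in line 20b (2 of 11 fell) and by 0.52 in line 41 (1 of 11). None of them was called in Clcn1-null or Mbnl1-null mice (limma, with 1 higher and 1 lower, and 0 and 0, at an unadjusted p under 0.05).

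Markers of other cells were counted beside these results. In line 20b 4 of 5 adipocyte, 6 of 8 endothelial and mural and 2 of 3 nerve markers were lower, and in line 41 0 of 5, 6 of 8 and 1 of 3. The summed endothelial and mural intensity was 30276 to 37226 in line 20b, 23407 to 35941 in line 41 and 38478 to 51768 in their wild type, and its part in the Grb10 and Peg3 results was not tested. No fibroblast and tendon marker was called by limma in any comparison with wild type, and at an unadjusted p under 0.05 at most 2 were higher and 1 lower in a comparison. The macrophage marker Cd68 rose in line 41 (1.46), Clcn1-null (3.25) and Mbnl1-null mice (1.91), 1 call of 4, 5 and 5 tested, and 0 of 4 were called in line 20b by limma (2 higher at an unadjusted p under 0.05).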

How the data were processed

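RNA of mouse quadriceps was extracted in Tri-Reagent and labelled as biotinylated cRNA, per the labels' protocols, and read on the arrays 430A and 430B (experiments 1 and 2) or on 1 array with the probe sets of both (experiment 3). The authors deposited linear probe set intensity values made with GCRMA, per the submitters' processing notes; settings and version are not given in the sources used here. Median intensity per array was 398 to 438 (430A) and 30.2 to 34.4 (430B) in experiment 1, 298 to 317 and 22.3 to 27.9 in experiment 2, and 9.56 to 11.6 in experiment 3, so the experiments look normalised apart and were fitted apart. Correlation between arrays of a table was 0.971 to 0.998. The number of arrays limits the precision.

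The log2 of each intensity was used. Control probe sets were left out, and limma 3.58.1 in R 4.3.3 (lmFit, eBayes with a trend) was run on each table with 1 mean per group and no covariate. The Benjamini-Hochberg adjustment of the two-sided p-values took in all probe sets of an experiment. The fit was tested on simulated data with known changes. Python 3.11.15 with pandas 2.3.3 did the rest. Names come from the platform annotation supplied (34945 probe sets with 1 symbol, 932 with several, 9160 with none).

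The members and all lists were chosen with earlier results of these data known. Named were the members, though not every probe set in every comparison, and all tested neighbours of the Dlk1-Dio3 region. From each other list, up to 3 called genes of the largest change were named in each comparison with wild type. The genes most like Meg3 and the targeted genes were named too. Lists covered other maternally and paternally expressed genes, the IGF system, cyclin-dependent kinase inhibitors, imprint maintenance and Polycomb, MEF2, myogenic and Notch genes, and markers of muscle fibre, adipocyte, endothelial, fibroblast, macrophage and nerve cells. Alternatives were other scalings, filters at none and log2 7, a floor, other variance models, array weights, a threshold of 0.01, probe sets with 1 symbol, a block for the mouse number and mice left out.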

Additional observations from a re-analysis of the deposited data

Results flagged for a closer look

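Mice that lay far from their group were looked for at each member probe set that passed the filter. Each set was read in each group of 5 or 6 mice, 98 looks in all, and 19 were found. Chance gives about 1 in 20 for independent looks. Sets of Meg3 move together over the same mice, so the same mouse is counted more than once and the 19 cannot be set against that share. Mouse 6 of the transgenic lines accounts for 6 of them. In line 20b, Meg3 in mouse 6 read 11.32 at 1452905_at (the next mouse 12.34), 10.10 at 1439380_x_at (next 11.16) and 11.93 at 1426758_s_at (next 12.92), each the lowest. In line 41, Meg3 in mouse 6 read 11.22 at 1452905_at (next 10.08) and 9.82 at 1439380_x_at (next 8.85), each the highest, and Mirg read 5.57 at 1457030_at (next 5.47).

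Mouse 1 of both groups of experiment 3 read low for Meg3. It read 10.32 at 1452183_a_at and 8.37 at 1426758_s_at in Mbnl1-null mice (next 11.16 and 9.46), and 8.78 at 1452183_a_at and 8.43 at 1452905_at in FVB wild type (next 9.59 and 9.16). Igf2 was highest in Mbnl1-null mouse 1 at 8.79 (next 7.99).

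The other single mice were these. Mirg at 1440097_at read 10.27 in line 20b mouse 3 (next 7.84). Mest read 5.38 in line 20b mouse 4 (next 5.10) and 8.37 in wild-type mouse 2 (next 5.75). Grb10 1430164_a_at read 6.45 in line 20b mouse 5 (next 6.61), and Rian 1440001_at 6.44 in line 41 mouse 1 (next 6.65). Wild-type mouse 5 of experiment 1 read 5.30 at Meg3 1429257_at, 6.18 at Rian 1452899_at (next 6.76) and 11.32 at Peg3 1417355_at (next 11.76).

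Rian 1452899_at, which did not pass the filter in experiment 3, averaged 5.61 in Mbnl1-null mice and 3.27 in FVB wild type, with the highest mutant at 6.78.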

How the results depend on the processing

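No member difference that was called changed its sign. Of the others, 12 did at some alternative, each within 0.22 of 0 with all mice, among them Meg3 1452183_a_at in line 41 at 0.16 (-0.10 without line 41 mouse 6). Of the member values under all alternatives 2658 kept their side of the threshold, 20 passed it newly and 69 lost it. Leaving out 1 mouse at a time gave 1099 to 1987 probe sets called between the lines (1596 with all mice) and a Meg3 difference of 2.77 to 3.18. Line 20b had 3980 to 4778 called and 8 to 9 member calls (4603 and 9), and line 41 had 1673 to 2346 and 1 to 1 (2315 and 1). The ranges were 47 to 2340 and 0 to 7 in Clcn1-null (1120 and 4), and 1829 to 2742 and 4 to 5 in Mbnl1-null mice (2628 and 4). With an adjusted p under 0.01 the counts were 622 between the lines and 2594 and 922 for lines 20b and 41 against wild type. They were 175 for Clcn1-null mice, with 0 member calls, and 1159 for Mbnl1-null mice. A filter at log2 7 left 5 member calls in line 20b, with fewer probe sets tested. Without wild-type mice 1 and 2 line 41 had 1433 calls and 2 member calls, the cause of which was not tested. In Clcn1-null mice, no filter gave 650 calls and array weights, whose estimation did not converge for the 430B arrays, gave 7329 with 9 member calls. In Mbnl1-null mice a median shift gave 1502 and no filter 1727; the cause was not tested. Scaling moved the split of calls: line 20b had 2009 higher and 2594 lower, but 2448 and 2208 after quantile normalisation, and line 41 had 1061 and 1254, but 1310 and 1138. Between the lines a median shift gave 801 higher and 685 lower, against 705 and 891.

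The main fit did not pair mice by number. The correlation of deviations between same-numbered mice was over 0.1 in 2, 1 and 2 of 6 pairs in the comparisons of experiment 1. It was over 0.1 in 0 of 3 pairs of experiment 2 and in 4 of 5 of experiment 3 (0.02 to 0.40). For experiment 3 these values do not settle whether the numbers pair the mice. With a replicate block, Clcn1-null mice had 243 calls and 1 member call, and Mbnl1-null mice 6 member calls, the added ones being Meg3 1436713_s_at (adjusted p = 0.00490) and Grb10 1425458_a_at (adjusted p = 0.0395). Mirg 1440097_at in line 20b was not called with it (adjusted p = 0.0579).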
